A study of Mus musculus with 768 samples.

Results

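Thymocytes of the DN2-3 gate from mice in which Tcf7 was targeted with Lck-cre were set against those from mice in which it was targeted with Vav-cre. The members are the cells of 2 Lck-cre plates and 1 Vav-cre plate with at least 1000 detected genes: 91 and 87 Lck-cre cells and 76 Vav-cre cells, 254 of the 675 cells kept in the whole series. The cells nearest to that limit had 1033, 1031 and 1002 genes just inside it and 981, 904 and 999 just outside, for Lck-cre plate 1, Lck-cre plate 2 and Vav-cre. All mice are labelled C57BL/6 and 6 to 8 weeks old. The Lck-cre and Vav-cre mice carried both alleles of Tcf7 flanked by loxP sites (Tcf7fl/fl), and differed by label in the recombinase alone. Cells were sorted from thymus as CD45-positive, lineage-negative, CD4-negative, CD8-negative and CD25-positive, a gate that joins the DN2 and DN3 stages. The DN2-3 plates of Tcf7-/- mice (93 cells), which lack the gene in the germline, and of wild-type mice (WT, 88 cells) are given beside them as context. RNA of single cells was counted by a modified STRT method. The 3 plates used the same 96 well barcodes, and no cells had identical counts. No animal, litter or sex is named, and the labels do not say whether the 2 Lck-cre plates come from different mice.

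Tcf7 encodes TCF1, a DNA-binding protein that early thymic progenitors switch on under Notch signals, and that in turn helps switch on T-lineage genes such as Bcl11b and Gata3. Vav-cre is active throughout blood formation, so that deletion precedes entry into the thymus. Lck-cre is driven by the proximal promoter of the T-cell kinase gene Lck in commonly used lines, becomes active within the thymus and deletes later, around the DN2 and DN3 stages. The comparison therefore sets later against earlier loss of the same gene, as far as each recombinase deleted it in these cells.

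The summed counts were 6112207 and 5841167 for the Lck-cre plates and 4381685 for Vav-cre, and the median kept cell held 58220, 45449 and 43900.5 counts. Levels are given in CPM, a gene's counts scaled to a common total per library, with exact Poisson intervals at 95% where printed, which cover counting error only. A genotype is 1 sample here, so no test between genotypes can be made and no p-value is given. A gene is called 2-fold higher or lower when log2(CPM + 10) differs from Vav-cre by at least 1 in the same direction on each Lck-cre plate. The 2 Lck-cre plates against each other are the yardstick of the spread. The Vav-cre DN2-3 library stood apart from the other 4 in 1 respect described at the end: genes of distal chromosome 12 were low and genes of chromosome 15 were high in nearly all of its cells. The total counts of calls are therefore given with and without those genes, and for each list whose calls change without them the count is given too.

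RNAs that define the gate were present in all 3 libraries. Il2ra, which encodes CD25, had 264 and 288 CPM on the Lck-cre plates and 225 CPM in Vav-cre, and Ptcra, the pre-T-cell receptor chain of DN3 cells, had 349 and 254 CPM against 297 CPM. Kit, a receptor that DN2 cells carry and DN3 cells lose, was low, at 7.53 and 10.1 CPM in Lck-cre and 10.7 CPM in Vav-cre. Xist was at 331 and 300.3 CPM in Lck-cre and 250.4 CPM in Vav-cre, and the Y-linked Ddx3y had 0 counts in these 3 libraries. The Tcf7-/- library differed in this, with 0.119 CPM of Xist and 45.5 CPM of Ddx3y, so that its sex differs from that of the other libraries by these genes.

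Tcf7 itself did not check the labels. It had 762 and 658 CPM on the Lck-cre plates, against 964 CPM in Vav-cre, with 122 CPM in Tcf7-/- and 862 CPM in WT. Cells with a Tcf7 count made up 96.7% and 96.6% of Lck-cre cells and 100% of Vav-cre cells. The deleted exons and the counted part of the transcript are not given in the sources used here, so a transcript without the deleted part could still be counted. Groups are named throughout by their labels. Lef1, the closest relative of Tcf7, had 273 and 324 CPM in Lck-cre, against 548 CPM in Vav-cre, 921 CPM in Tcf7-/- and 347 CPM in WT. Its log2 ratios of -0.98 and -0.74 did not reach the 2-fold limit.

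Of 4093 genes at 50 CPM or more in 1 of the 3 libraries, 135 were 2-fold higher on both Lck-cre plates than in Vav-cre (3.3%) and 189 were 2-fold lower (4.62%). Between the 2 Lck-cre plates, 37 of the same genes were 2-fold higher on plate 1 and 76 were 2-fold lower. The median absolute log2 ratio was 0.25 between the plates, against 0.38 for each plate over Vav-cre. By mean log2 ratio Bex1, Pdlim4, Gpr83 and Ifitm3 were lowest, at -5.11, -5.08, -4.61 and -4.45, and Izumo1r was at -4.22. Without genes of chromosome 15 and distal chromosome 12 the counts were 114 higher and 167 lower. With 1 plate alone the higher count was 243 without plate 1 and 221 without plate 2, since a gene then has to pass only once.

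**Figure D1:**
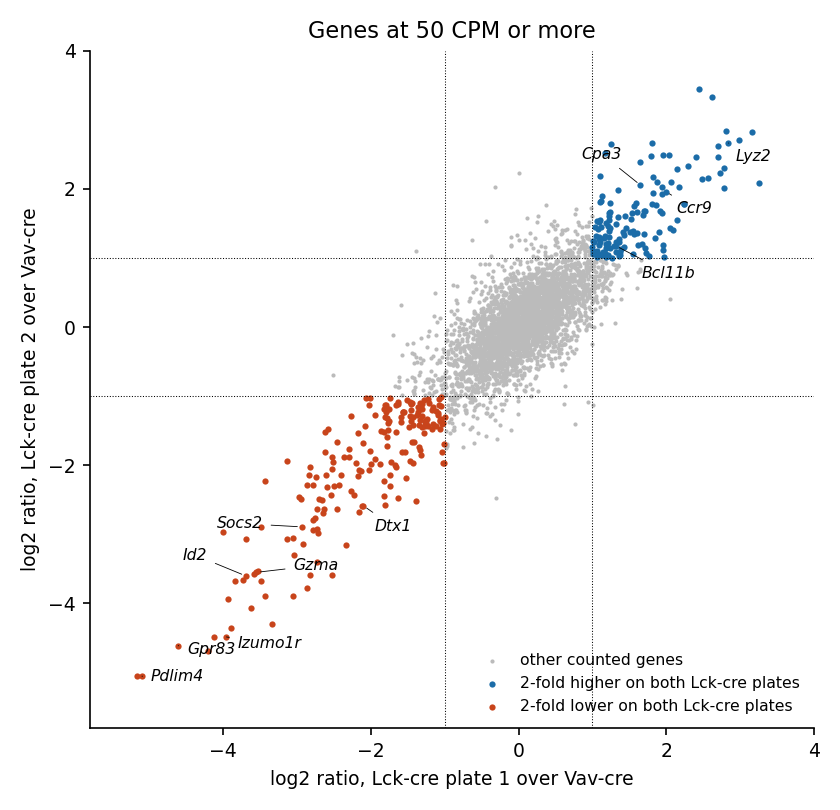
Log2 ratio of each gene on Lck-cre plate 1 over Vav-cre (x axis) and on plate 2 over Vav-cre (y axis), for the 4093 genes at 50 CPM or more; dotted lines mark a 2-fold difference. Bex1 and Pdlim4 lie farthest to the lower left, with mean log2 ratios of -5.11 and -5.08.

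The 6 genes that mark the contrast were all lower in Lck-cre; they were chosen with this difference known, so their values are a description. Pdlim4, a PDZ and LIM domain protein that binds actin, had 0 and 0.342 CPM on the Lck-cre plates and 333 CPM in Vav-cre (interval 316 to 351). It had 226 CPM in Tcf7-/- and 0 counts in WT. Gpr83, a G-protein-coupled receptor found on regulatory T cells, had 0 counts on both Lck-cre plates and 234 CPM in Vav-cre, 91.4 CPM in Tcf7-/- and 0 counts in WT. Taking a floor of 3 counts per library, Gpr83 was at least 478-fold and 456-fold lower in Lck-cre than in Vav-cre. Izumo1r, folate receptor 4 of regulatory and anergic T cells, had 4.42 and 0 CPM in Lck-cre and 214 CPM in Vav-cre, with 75.8 CPM in Tcf7-/- and 0 counts in WT. For these 3 genes the Lck-cre plates lay at the WT level, near 0, and Vav-cre lay with Tcf7-/-.

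Gpr83 and Izumo1r are neighbours on chromosome 9 (mm10), Gpr83 at 14860210 to 14870789 on the plus strand and Izumo1r at 14885814 to 14903949 on the minus strand, 15.025 kb apart. Pdlim4 lies on chromosome 11 at 54054928 to 54069014, minus strand. The RefSeq promoter windows of these 3 genes (GRCm38.p6, 250 bases before to 50 after the gene start, gene strand) are shown because the genes moved together and because TCF1 binds DNA; capitals mark CTTTG or its reverse complement CAAAG, the core of the sequence that TCF and LEF proteins recognise.
Pdlim4, chr11:54068968-54069267, minus strand: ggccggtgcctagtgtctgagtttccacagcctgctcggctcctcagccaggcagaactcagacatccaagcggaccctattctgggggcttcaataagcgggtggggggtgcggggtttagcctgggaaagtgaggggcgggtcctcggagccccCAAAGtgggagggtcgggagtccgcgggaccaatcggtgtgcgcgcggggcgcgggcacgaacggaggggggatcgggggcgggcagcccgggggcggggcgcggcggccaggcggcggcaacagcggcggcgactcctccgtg
Gpr83, chr9:14859960-14860259, plus strand: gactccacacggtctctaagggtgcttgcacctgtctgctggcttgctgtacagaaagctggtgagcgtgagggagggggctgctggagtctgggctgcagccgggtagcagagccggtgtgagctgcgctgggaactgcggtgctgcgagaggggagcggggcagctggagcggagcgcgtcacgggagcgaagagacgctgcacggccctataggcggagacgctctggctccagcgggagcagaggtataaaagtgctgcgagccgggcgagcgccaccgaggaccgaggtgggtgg
Izumo1r, chr9:14903718-14904017, minus strand: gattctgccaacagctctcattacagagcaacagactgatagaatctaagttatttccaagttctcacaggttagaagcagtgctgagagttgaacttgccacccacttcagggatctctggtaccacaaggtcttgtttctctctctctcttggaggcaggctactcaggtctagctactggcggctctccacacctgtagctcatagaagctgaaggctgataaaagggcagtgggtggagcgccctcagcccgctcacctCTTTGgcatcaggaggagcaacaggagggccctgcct
Pdlim4 and Izumo1r have 1 match each in these windows and Gpr83 has none. Over the 6 marker genes 4 windows held the 5 bases on either strand, and 53.9% of all 32851 promoter windows of this length hold them, so the count is near that of promoters at large.

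Id2, Gzma and Dtx1 were not absent from Lck-cre cells but far below Vav-cre. Id2, which blocks E proteins and is needed for innate lymphoid and NK cells, had 19.8 and 21.9 CPM in Lck-cre and 377 CPM in Vav-cre, a mean log2 ratio of -3.65. It was at 156 CPM in Tcf7-/- and 74.96 CPM in WT, so both Lck-cre plates lay below WT. Gzma, a protease of cytotoxic granules, had 788 and 789 CPM in Lck-cre and 9343 CPM in Vav-cre, a mean log2 ratio of -3.55, with 2633 CPM in Tcf7-/- and 1078 CPM in WT. The 2 Lck-cre values differ by less than their counting intervals. Dtx1, a Notch-induced ubiquitin ligase, had 59.4 and 39.7 CPM in Lck-cre and 288 CPM in Vav-cre, a mean log2 ratio of -2.34, with 283 CPM in Tcf7-/- and 27.9 CPM in WT. For all 6 genes Vav-cre had the highest level of the 5 libraries, and for Dtx1 its interval of 273 to 305 CPM overlapped that of Tcf7-/-, 272 to 295 CPM.

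**Figure D2:**
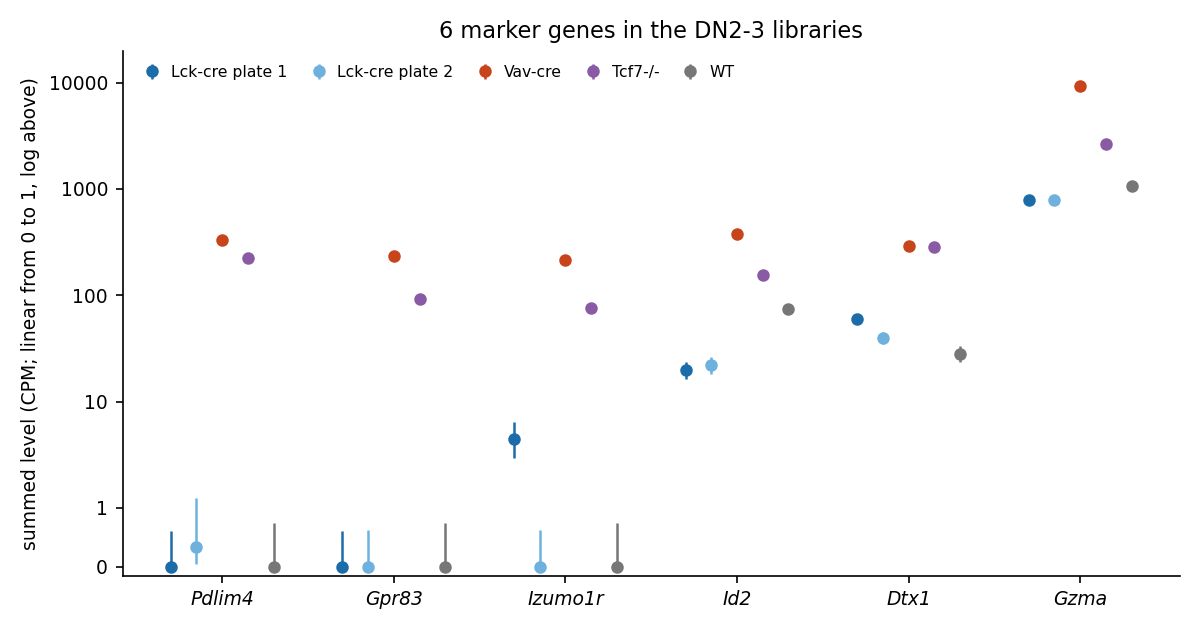
Summed level in CPM (y axis, linear from 0 to 1 and logarithmic above) of the 6 marker genes in the 5 DN2-3 libraries, with exact 95% Poisson intervals that cover counting error only. Pdlim4, Gpr83 and Izumo1r are near 0 on both Lck-cre plates and in WT, and between 75.8 and 333 CPM in Vav-cre and Tcf7-/-.

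The difference ran through most cells and was not that of a few. Pdlim4 was counted in 0 of 91 and 1 of 87 Lck-cre cells and in 53 of 76 Vav-cre cells. Gpr83 was counted in none of the Lck-cre cells and in 42 Vav-cre cells, and 0 of 91 cells allows a share of cells with a count of up to 3.97% (exact Clopper-Pearson, counting error only), which sets no limit on cells that express the gene. Izumo1r was counted in 3 and 0 Lck-cre cells and in 55 Vav-cre cells, and Id2 in 12 and 14 Lck-cre cells and in 66 Vav-cre cells. Dtx1 was counted in 35 and 24 Lck-cre cells and in 63 Vav-cre cells. With each cell thinned to 20000 counts, Pdlim4 was counted in 0 of 76 and 0 of 66 Lck-cre cells and in 38 of 58 Vav-cre cells, and Id2 in 10 and 10 Lck-cre cells and in 52 Vav-cre cells. Gzma was counted in all 76 Vav-cre cells, the lowest of which had 2012 CPM, above the median Lck-cre cell at 518 and 474 CPM on plates 1 and 2. The ranges overlapped, since the highest Lck-cre cell had 4407 CPM.

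Many Vav-cre and Tcf7-/- cells had counts of several of these RNAs. The genes were chosen as high in Vav-cre and each was counted in most of its cells. Such cells would thus occur without any link between the genes, and a link was not tested. Of Pdlim4, Gpr83, Izumo1r and Id2, at least 2 were counted in none of the 178 Lck-cre cells and none of the 88 WT cells. In Vav-cre, 16 cells had 2, 24 had 3 and 26 had all 4 of them, of 76 cells. In Tcf7-/-, 29 cells had 2, 26 had 3 and 20 had all 4, of 93 cells. Vav-cre cells with none of the 4 numbered 2, against 76 and 72 cells on the Lck-cre plates.

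The 28 gene lists were compared by counting members at 10 CPM or more in 1 of the 3 libraries. Among all 8537 genes at that level, 3.41% were 2-fold higher and 4.76% 2-fold lower on both Lck-cre plates, and the median log2 ratio was 0.06. The lists were not tested against this background. Of these 8537 genes, 41.7% lay above 0 and 34.2% below 0 on both plates. The list that holds Pdlim4, Gpr83 and Izumo1r, genes of regulatory and agonist-signalled T cells, had 13 of 21 genes measured. Of the 13, 6 were lower and 1 was higher, or 5 of 12 lower without Il2rb of chromosome 15. Pdlim4, Gpr83 and Izumo1r were chosen with this difference known, so the count was partly set beforehand, as in lists with Id2, Gzma or Dtx1. Beside the 3 markers, the lower genes were Ctla4, an inhibitory receptor, at 59.2 and 33.7 CPM in Lck-cre and 190 CPM in Vav-cre, Itgae, the integrin CD103, at 4.42 and 2.91 CPM against 89.2 CPM, and Il2rb. Cd200 was the higher one, at 16.0 and 10.3 CPM in Lck-cre and 0 in Vav-cre. Ikzf2, which encodes Helios of regulatory T cells, was at 130 and 123 CPM in Lck-cre and 151 CPM in Vav-cre, and Tnfrsf18 at 32.4 and 26.4 CPM against 39.3 CPM.

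**Figure D3:**
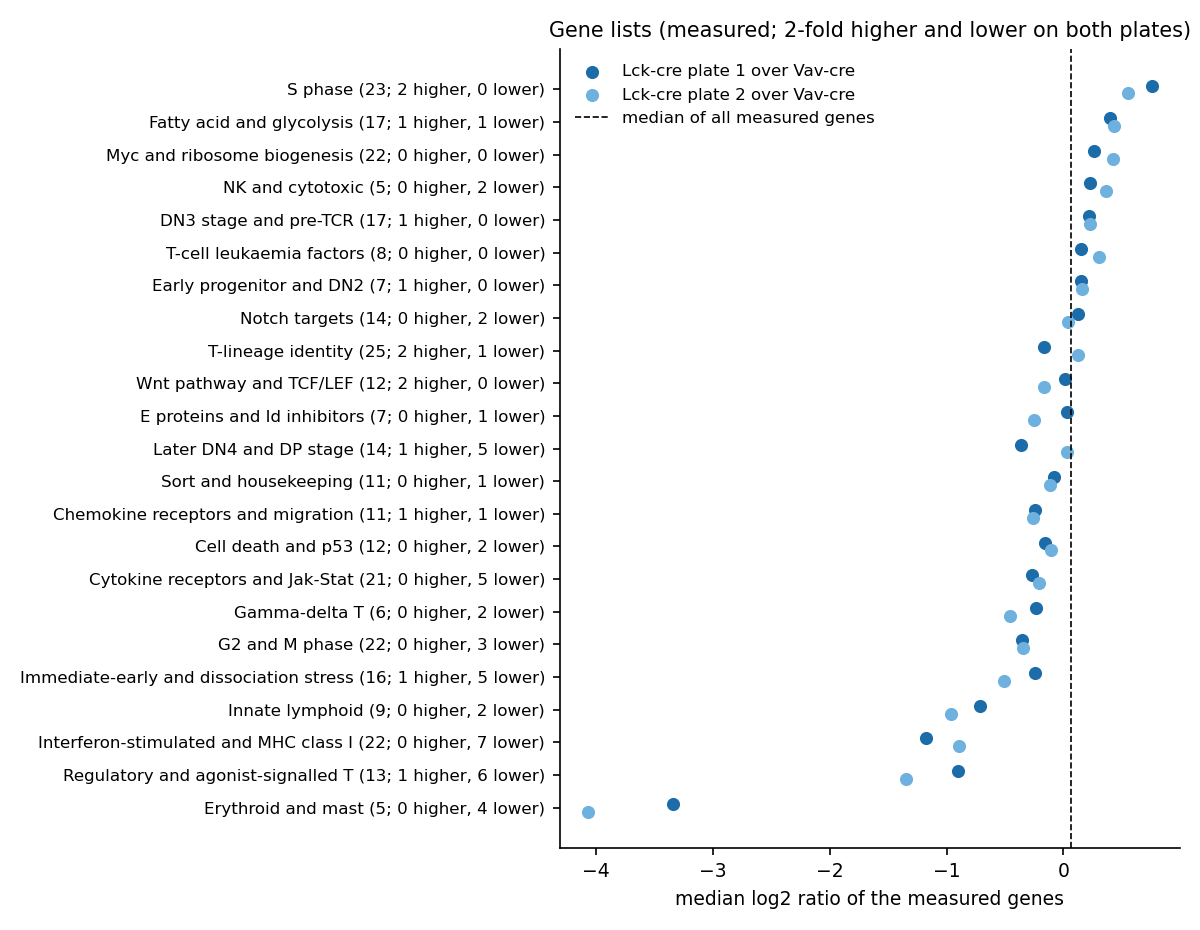
Median log2 ratio (x axis) of the measured genes of each list with at least 5 measured, for Lck-cre plate 1 and plate 2 over Vav-cre; each label gives the genes measured and those 2-fold higher and lower on both plates. The erythroid and mast-cell list lies lowest, at -3.34 and -4.07, and S phase genes lie highest, at 0.75 and 0.56.

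Most T-lineage genes did not reach the 2-fold limit, and 10 lay above 0 and 10 below 0 on both plates. Of 25 measured genes of T-lineage identity, 2 were higher and 1 lower in Lck-cre, 1 and 1 without Bcl11b of distal chromosome 12, and the list median was -0.16 on plate 1 and 0.12 on plate 2. Cd3e had 296 and 347 CPM in Lck-cre and 269 CPM in Vav-cre, Thy1 447 and 561 CPM against 445 CPM, and Gata3 170.2 and 215 CPM against 140.4 CPM. Cd3g had 3233 and 3061 CPM against 1778 CPM, Zap70 had 39.3 and 57.9 CPM against 121 CPM, and neither was called. Bcl11b, the factor that fixes T-cell commitment, was higher at 670 and 608 CPM in Lck-cre, against 263 CPM in Vav-cre, 418 CPM in Tcf7-/- and 833 CPM in WT. It was counted in 87 of 91 and 82 of 87 Lck-cre cells and in 61 of 76 Vav-cre cells. Bcl11b lies on distal chromosome 12, where the median gene was also low in Vav-cre, and its part in the Bcl11b value was not tested. Cd28, a costimulatory receptor, was higher at 55.1 and 67.3 CPM in Lck-cre and 18.0 CPM in Vav-cre. Cd2, an adhesion receptor, was lower at 4.91 and 5.65 CPM in Lck-cre, against 189 CPM in Vav-cre, 205 CPM in Tcf7-/- and 0 counts in WT.

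Among DN3 genes, 1 of 17 was higher and none lower at the 2-fold limit. Ccr9, a chemokine receptor for the thymic chemokine CCL25, was higher at 157 and 153 CPM in Lck-cre, against 32.0 CPM in Vav-cre, 60.6 CPM in Tcf7-/- and 341 CPM in WT. Dntt, the polymerase that adds bases at V(D)J joints, had 2941 and 2684 CPM in Lck-cre and 1358 CPM in Vav-cre, with 1074 CPM in Tcf7-/- and 3037 CPM in WT. Its log2 ratio on plate 2 was just under the limit. Rag1 had 151 and 104 CPM in Lck-cre and 214 CPM in Vav-cre. Arpp21 had 1480.3 and 1269 CPM in Lck-cre and 721 CPM in Vav-cre.

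Of 14 measured genes of later stages, 5 were lower and 1, Cd28, was higher. The list median was -0.36 on plate 1 and 0.03 on plate 2, and 7 genes lay below 0 and 4 above 0 on both plates. Cd8b1 had 4.58 and 2.74 CPM in Lck-cre and 87.0 CPM in Vav-cre, and Cd8a 0 and 2.23 CPM against 50.7 CPM. Both encode chains of the CD8 coreceptor, which the gate selects against as surface protein. In Tcf7-/- they had 117 and 36.7 CPM, and in WT 25.3 and 18.3 CPM. Ikzf3 had 4.42 and 6.68 CPM in Lck-cre and 28.8 CPM in Vav-cre, and Cd52 19.6 and 33.4 CPM against 81.9 CPM. Of the early progenitor genes only 7 of 22 reached 10 CPM, and Cpa3, a mast-cell and early-progenitor protease, was the 1 called, at 180.0 and 241 CPM in Lck-cre and 50.4 CPM in Vav-cre, with 482 CPM in WT. A single cell held 79.6% of the Vav-cre counts of Cpa3, and the log2 ratio was -0.10 when cells with markers of other blood cells were left out.

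Notch signalling drives the DN stages, and its usual targets did not move together. Of 14 measured, Dtx1 and Trib2 were lower and none was higher. Trib2, a pseudokinase, had 0.982 and 1.54 CPM in Lck-cre and 86.7 CPM in Vav-cre, against 46.7 CPM in Tcf7-/- and 4.82 CPM in WT. Hes1 was level, at 254 and 253 CPM in Lck-cre and 249 CPM in Vav-cre, and Notch1 had 71.3 and 75.3 CPM against 67.3 CPM. Of 12 measured genes of the Wnt pathway, in which TCF and LEF proteins act with beta-catenin, 2 were higher and none lower. Tcf7l2, which encodes another TCF factor, had 40.2 and 16.3 CPM in Lck-cre and 0.913 CPM in Vav-cre, with 35.6 CPM in WT. Tle3, a corepressor that binds TCF proteins, had 92.3 and 64.0 CPM in Lck-cre and 22.1 CPM in Vav-cre, with 98.3 CPM in WT.

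Among E proteins and their Id inhibitors, Id2 was the 1 gene called. The E protein genes Tcf3 and Tcf12 had 88.0 and 86.6 CPM, and 249 and 227 CPM, in Lck-cre, against 60.7 and 364 CPM in Vav-cre. Id3 had 147 and 138 CPM in Lck-cre and 89.2 CPM in Vav-cre. Innate lymphoid genes were mostly out of range: 9 of 23 reached 10 CPM, and 2 were lower, Id2 and Icos, a costimulatory receptor, at 0 and 3.94 CPM in Lck-cre and 21.5 CPM in Vav-cre. Of 27 genes of NK and cytotoxic cells only 5 reached 10 CPM. Gzma and Gzmb were lower, and Nkg7 had 409 and 499 CPM in Lck-cre and 347 CPM in Vav-cre. For Gzmb, 86.0% of its 11.4 CPM in Vav-cre came from 1 cell. The list medians of 0.23 and 0.37 were thus above 0 while its most abundant gene, Gzma, was far below. Of the 6 measured genes of gamma-delta T cells, Maf and Il2rb were lower, and without Il2rb 1 of 5.

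Genes of cytokine signalling were lower in 5 of 21 measured cases and higher in none, or lower in 4 of 19 without Il2rb and Il7r of chromosome 15. They comprise Il2rb and Il15ra, chains of the receptors for interleukins 2 and 15, and Socs2, Socs3 and Cish, feedback inhibitors that Jak-Stat signals induce. Socs2 had 14.2 and 15.1 CPM in Lck-cre, against 176 CPM in Vav-cre, 70.6 CPM in Tcf7-/- and 32.0 CPM in WT, and was counted in 12 and 7 Lck-cre cells and 50 Vav-cre cells. Cish had 2.94 and 4.96 CPM in Lck-cre, against 29.9 CPM in Vav-cre, 0.358 CPM in Tcf7-/- and 4.22 CPM in WT, and was counted in 4 and 7 Lck-cre cells and 34 Vav-cre cells. So Cish was high in Vav-cre alone among the 5 libraries, while Socs2 was also raised in Tcf7-/-. Socs3 had 27.2 and 25.5 CPM in Lck-cre and 84.9 CPM in Vav-cre. Socs1, a further inhibitor of this kind, was not lower, at 64.3 and 84.6 CPM in Lck-cre and 59.1 CPM in Vav-cre. Il15ra had 7.53 and 4.62 CPM in Lck-cre and 25.8 CPM in Vav-cre. Il2rb, which lies on chromosome 15, had 0 counts in Lck-cre and 15.5 CPM in Vav-cre, from 7 cells. Il7r, the receptor on which DN thymocytes depend, also lies on chromosome 15 and had 200.3 and 237 CPM in Lck-cre and 269 CPM in Vav-cre, and Stat5a and Stat5b had 75.4 and 58.0 CPM, and 70.7 and 65.1 CPM, in Lck-cre, against 88.8 and 46.6 CPM in Vav-cre.

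The promoter windows of Cish and Socs3 are shown because both genes are textbook targets of STAT proteins; capitals mark TTCNNNGAA, the palindrome that STAT dimers bind, which reads the same on both strands.
Cish, chr9:107296409-107296708, plus strand: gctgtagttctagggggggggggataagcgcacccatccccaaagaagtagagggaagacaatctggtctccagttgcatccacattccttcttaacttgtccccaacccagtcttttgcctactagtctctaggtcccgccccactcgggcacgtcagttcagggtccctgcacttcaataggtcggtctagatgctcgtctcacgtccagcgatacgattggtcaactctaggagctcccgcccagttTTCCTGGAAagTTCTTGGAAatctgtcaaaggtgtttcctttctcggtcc
Socs3, chr11:117969317-117969616, minus strand: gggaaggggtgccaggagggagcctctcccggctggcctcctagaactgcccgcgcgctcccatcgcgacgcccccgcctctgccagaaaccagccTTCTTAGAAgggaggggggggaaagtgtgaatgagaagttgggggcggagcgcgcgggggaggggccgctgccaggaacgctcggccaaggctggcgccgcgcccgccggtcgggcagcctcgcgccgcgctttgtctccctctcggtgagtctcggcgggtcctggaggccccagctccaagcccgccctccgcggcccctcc
Cish holds 2 matches and Socs3 holds 1, while 8.30% of all windows hold at least 1. Both genes were picked as known targets, so matches were likely from the start. Whether STAT proteins act on them here was not tested. Windows were at hand for 3 of the 5 lower genes, and that of Il15ra holds none.

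Of 22 measured interferon-stimulated and MHC class I genes, 7 were 2-fold lower on both Lck-cre plates and none was higher, or 6 of 19 lower without genes of chromosome 15 and distal chromosome 12. Of the 22, 21 lay below 0 on both plates. The median log2 ratio was -1.17 on plate 1 and -0.90 on plate 2. H2-D1 and H2-K1, the classical class I heavy chains, had 384 and 505 CPM, and 513 and 654 CPM, in Lck-cre, against 1338 and 1415 CPM in Vav-cre. Nlrc5, the transactivator of class I genes, had 4.74 and 6.33 CPM in Lck-cre, against 69.6 CPM in Vav-cre, 7.76 CPM in Tcf7-/- and 17.7 CPM in WT. Usp18, which removes ISG15 from proteins, had 9.16 and 21.1 CPM in Lck-cre, against 128 CPM in Vav-cre, 20.5 CPM in Tcf7-/- and 56.5 CPM in WT. B2m, the class I light chain, had 3396 and 4423 CPM in Lck-cre and 8349 CPM in Vav-cre, past the limit on plate 1 alone. For H2-D1, H2-K1, Nlrc5, Usp18 and B2m, Vav-cre was also above Tcf7-/- and WT. Ifit3, Oasl2 and Ly6a complete the lower genes, and in these Vav-cre was below WT, at 15.5, 65.5 and 184 CPM in Vav-cre against 17.9, 76.8 and 255 CPM in WT. Ly6a lies on chromosome 15. Without cells bearing markers of other blood cells, the median of interferon-stimulated and MHC class I genes was -0.43. That filter used raw counts of marker genes that include Bst2, itself a gene of this list. The cells were thus chosen partly by the list measured, and what the removed cells add to the median was not tested. Bst2 did not follow, at 422 and 342 CPM in Lck-cre and 372 CPM in Vav-cre. Class I heavy chains are near copies of each other, so reads could be split between them.

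Of 23 measured S phase genes, 19 lay above 0 on both plates, 2 were 2-fold higher and none was lower, and the medians were 0.75 and 0.56. Mcm7, a subunit of the replicative helicase, had 265 and 304 CPM in Lck-cre and 120 CPM in Vav-cre, and Uhrf1, which helps copy DNA methylation, 341 and 268 CPM against 125 CPM. Of 22 genes of G2 and M phase, 14 lay below 0 on both plates, and Ube2c, Nusap1 and Anln were 2-fold lower. Nusap1 had 22.9 and 17.3 CPM in Lck-cre and 85.6 CPM in Vav-cre, while Mki67 had 53.5 and 59.7 CPM against 38.6 CPM. Single cells held 42.4% of the Nusap1 and 59.6% of the Ube2c counts in Vav-cre. With cells bearing other blood markers left out, which left 46, 45 and 41 cells, the log2 ratio of Ube2c was 1.67 and that of Nusap1 was 0.38. The median of G2 and M phase genes was then 0.99, against -0.36 and -0.35 on plates 1 and 2 over all kept cells. The filter used raw counts, so cells with more counts were more readily left out. Its markers include Bst2 and Cd79b, which each of these libraries holds, so a cell left out need not be of another type. What depth adds to the change was not tested.

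Of 22 genes of Myc and ribosome biogenesis none was called, and 14 lay above 0 on both plates. Myc had 268 and 254 CPM in Lck-cre, against 143 CPM in Vav-cre, 196 CPM in Tcf7-/- and 216 CPM in WT. It lies on chromosome 15, whose other genes were mostly high in Vav-cre. No gene of the T-cell leukaemia list was called. In metabolism, Acadl, a mitochondrial dehydrogenase of fatty acids, was lower at 17.2 and 5.99 CPM in Lck-cre, against 183 CPM in Vav-cre, 116 CPM in Tcf7-/- and 167 CPM in WT, so that the Lck-cre plates stood apart from all 3. Slc2a1, a glucose transporter, was higher at 23.2 and 18.5 CPM in Lck-cre and 2.74 CPM in Vav-cre. Glycolytic genes such as Ldha, at 1064 and 1092 CPM in Lck-cre and 730.1 CPM in Vav-cre, did not reach the limit. In the cell death list, Bcl2l11, which encodes the pro-apoptotic BIM, had 21.8 and 13.4 CPM in Lck-cre and 69.8 CPM in Vav-cre, and Casp8 70.02 and 83.5 CPM against 185 CPM. Immediate-early genes, which tissue handling also raises, were lower in 5 of 16 cases, or 4 of 14 without Fos and Hsp90aa1 of distal chromosome 12. Dusp1 had 44.0 and 20.03 CPM in Lck-cre and 157 CPM in Vav-cre, and Nfkbia, an inhibitor of NF-kappaB, 74.6 and 122 CPM against 373 CPM. Jun, Junb and Fos were the others, with WT at 161 CPM for Jun and 141 CPM for Fos. Hsp90aa1, on distal chromosome 12, was higher.

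Markers of other cell types were called for haemoglobins and Lyz2. Bst2 made up most of the dendritic sums and Cd79b, at 139 and 93.3 CPM in Lck-cre and 128 CPM in Vav-cre, most of the B-cell sums. Hbb-bs had 22.6 and 13.7 CPM in Lck-cre and 473 CPM in Vav-cre, with 65.7% of the Vav-cre counts in 1 cell, and counts in 11 and 14 Lck-cre cells and 35 Vav-cre cells. Hba-a1, Hba-a2 and Hbb-bt were lower likewise; these copies are near-identical, and reads could be split between them. The summed level of the 13 genes of the erythroid and mast-cell list was 79.8 and 40.6 CPM in Lck-cre and 1258 CPM in Vav-cre, and 5 of them had 0 counts in Lck-cre plate 1. Lyz2, lysozyme of macrophages and granulocytes, was higher in Lck-cre at 61.8 and 53.4 CPM, against 0 counts in Vav-cre and 74.8 CPM in WT, from 23 of 91 and 23 of 87 cells. It was the 1 myeloid gene of 14 at 10 CPM, and 6 of the list had 0 counts on plate 1. Of the B-cell, dendritic-cell and thymic stroma lists, 2 of 12, 3 of 14 and 3 of 12 genes reached 10 CPM, and none was called. Their summed levels were 154 and 109, 451 and 373, and 201 and 152 CPM in Lck-cre, against 134, 423 and 331 CPM in Vav-cre. Epcam of the stroma list had 134 and 74.1 CPM in Lck-cre and 274 CPM in Vav-cre, past the limit on plate 2 alone. The part of such cells or of free RNA in the calls was not tested.

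Genes outside the lists filled out the extremes. Beside genes already described, the lower genes by the naming rule included Bex1, an X-linked adaptor protein, at 0 and 0.856 CPM in Lck-cre and 349 CPM in Vav-cre, and Ifitm3, which restricts virus entry, at 20.3 and 11.6 CPM against 550.0 CPM. Bex1 had 12.2 CPM in Tcf7-/- and 2.01 CPM in WT, and was counted in 61 of 76 Vav-cre cells and in 1 Lck-cre cell, so unlike Pdlim4 it marked Vav-cre and not Tcf7-/-. Adam19, a membrane metalloprotease, had 0 counts on both Lck-cre plates and 143 CPM in Vav-cre, with 52.4 CPM in Tcf7-/- and 0 in WT. Cd160, a receptor of NK and T cells, had 0 and 1.198 CPM in Lck-cre and 134 CPM in Vav-cre, with 59.4 CPM in Tcf7-/-. Ly86 and Art2b had 0 counts in Lck-cre and 110 and 106 CPM in Vav-cre. Of the genes that were higher in Lck-cre by the naming rule, Laptm4b, a lysosomal membrane protein, had 81.1 and 82.7 CPM in Lck-cre and 2.97 CPM in Vav-cre, and Nme4, a mitochondrial nucleoside kinase, 74.6 and 59.9 CPM against 0.685 CPM. Laptm4b lies on chromosome 15 and was the 1 gene there that was 2-fold higher in Lck-cre. Tifa, an adaptor of NF-kappaB signalling, had 55.3 and 51.4 CPM in Lck-cre, against 0 counts in Vav-cre, 2.27 CPM in Tcf7-/- and 50.04 CPM in WT. Ctla2a, Use1, Ybx3, Serpinb1a and Ninj1 were others, as were Siva1 and Churc1 of distal chromosome 12. Use1, a SNARE protein of the endoplasmic reticulum, was at 402 and 417 CPM in Lck-cre and 67.6 CPM in Vav-cre.

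The levels of the called genes in the other libraries can be set beside these, since Tcf7-/- and WT played no part in the calls. The 189 lower genes had a median level of 19.8 and 21.4 CPM in Lck-cre and 102 CPM in Vav-cre, with 37.1 CPM in Tcf7-/- and 28.7 CPM in WT. Of these genes, 18 were at or under 3 counts on each Lck-cre plate, 6 in Tcf7-/- and 11 in WT. The 135 higher genes had a median of 81.5 and 79.3 CPM in Lck-cre and 22.1 CPM in Vav-cre, with 48.0 CPM in Tcf7-/- and 78.6 CPM in WT. The calls were made on a difference from Vav-cre, so how near another library lies to Lck-cre is not read from these medians.

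The 2-fold genes were not spread evenly over the genome. This grouping was chosen after the values were seen and is given without a test. Of 73 counted genes on chromosome 12 from 70 Mb onward (mm10), 20 were 2-fold higher in Lck-cre, or 27.4%, and 63 had a mean log2 ratio above 0, with a median of 0.81. The 55 counted genes before 70 Mb had a median of 0.01. By 10-Mb windows the medians lay between -0.18 and 0.35 before that point and between 0.39 and 1.10 after it. Of 182 counted genes on chromosome 15, 20 were 2-fold lower, or 10.99%, and 152 lay below 0, with a median of -0.51. All 11 windows of chromosome 15 had a median below 0, from -1.83 to -0.23. On the other 18 chromosomes the medians lay between -0.01 and 0.17. Between the 2 Lck-cre plates the medians were -0.02 for distal chromosome 12 and 0.03 for chromosome 15.

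**Figure D4:**
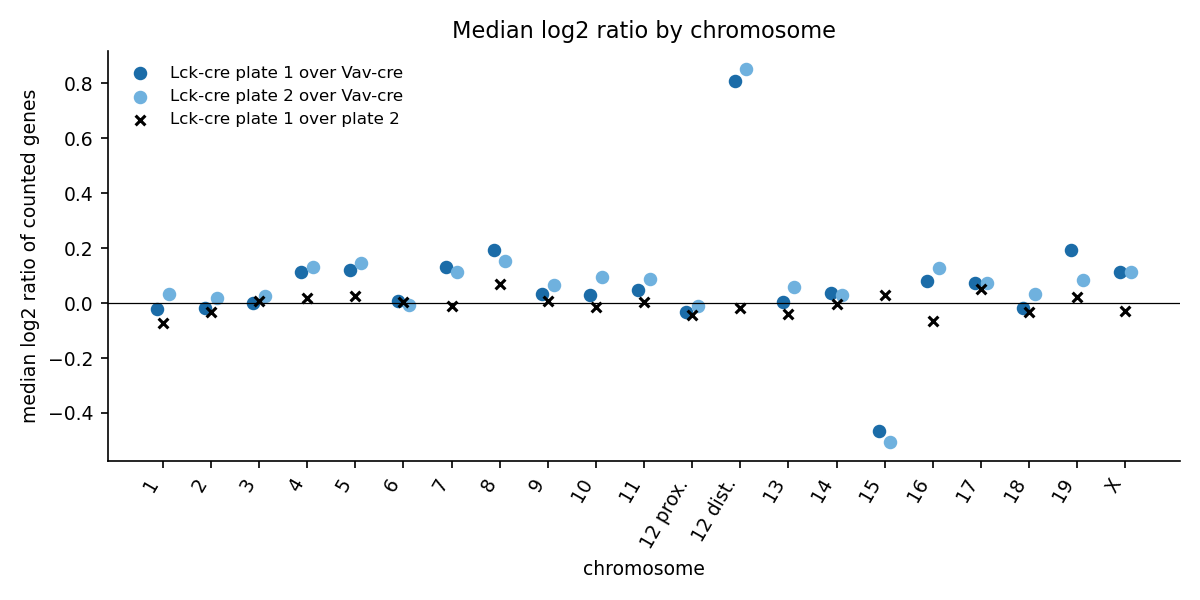
Median log2 ratio (y axis) of the counted genes of each chromosome, with chromosome 12 split at 70 Mb into a proximal and a distal stretch, for each Lck-cre plate over Vav-cre and for plate 1 over plate 2. Distal chromosome 12 lies at 0.81 and 0.85 and chromosome 15 at -0.46 and -0.51, and the plate against plate values stay near 0.

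Among the genes of distal chromosome 12 that were higher in Lck-cre, Crip1, a small LIM protein, had 4828 and 5083 CPM in Lck-cre, against 1243 CPM in Vav-cre, 4557 CPM in Tcf7-/- and 5609 CPM in WT. Srsf5, a splicing factor, had 966 and 879 CPM in Lck-cre, against 332.5 CPM in Vav-cre, 563 CPM in Tcf7-/- and 872.5 CPM in WT, and Erh had 512 and 480.4 CPM in Lck-cre, against 212 CPM in Vav-cre. Hsp90aa1, a chaperone, had 1960.5 and 2144 CPM in Lck-cre and 905 CPM in Vav-cre. Siva1 had 433 and 443 CPM in Lck-cre and 80.3 CPM in Vav-cre. Fos and Pld4 went the other way. On chromosome 15 the lower genes included Pabpc1, which binds poly(A) tails, at 446 and 562 CPM in Lck-cre, against 1330.3 CPM in Vav-cre, 944 CPM in Tcf7-/- and 590.4 CPM in WT, and Xrcc6, a subunit of the Ku complex of DNA end joining, at 263 and 222 CPM in Lck-cre and 890.5 CPM in Vav-cre. Ly6c1 and Ly6k of the Ly6 cluster had 86.5 and 60.6 CPM, and 113 and 204 CPM, in Lck-cre, against 1039 and 862 CPM in Vav-cre. Endou had 573 and 491 CPM in Lck-cre and 1573 CPM in Vav-cre.

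The shift is also described cell by cell, in the same cells whose summed counts led to the choice of these stretches. In cells with at least 10000 counts, distal chromosome 12 gave a median of 2.11% and 2.05% of the counts in Lck-cre cells and 1.07% in Vav-cre cells, with 2.07% in Tcf7-/- and 2.38% in WT. Chromosome 15 gave 4.69% and 4.75% in Lck-cre cells and 6.58% in Vav-cre cells, with 4.65% in Tcf7-/- and 4.76% in WT. Proximal chromosome 12 gave 1.67% and 1.73% in Lck-cre and 1.86% in Vav-cre. Cells below the 5th percentile of all Lck-cre cells for distal chromosome 12 (1.60%) and above their 95th percentile for chromosome 15 (5.33%) numbered 0 of 159 in Lck-cre and 61 of 65 in Vav-cre, with 1 of 89 in Tcf7-/- and 1 of 80 in WT. Since the marks were drawn from Lck-cre cells, few of those cells could lie past both. Of 49 Vav-cre cells of the DN1 gate, 20 were below the distal chromosome 12 mark and 5 above the chromosome 15 mark. In 2 of them both held, and the medians of the 49 were 1.82% and 4.53%. Below the distal chromosome 12 mark lay 63 of 65 Vav-cre DN2-3 cells, with 6 of 89 in Tcf7-/- and 2 of 80 in WT. Without the 10 most abundant genes of each stretch, 40 of 65 Vav-cre cells and 1 of 159 Lck-cre cells were past both marks drawn anew, and the chromosome 15 medians were 2.88% and 2.82% in Lck-cre and 4.17% in Vav-cre. DNA copy number was not measured, and what sets these cells apart was not tested.

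**Figure D5:**
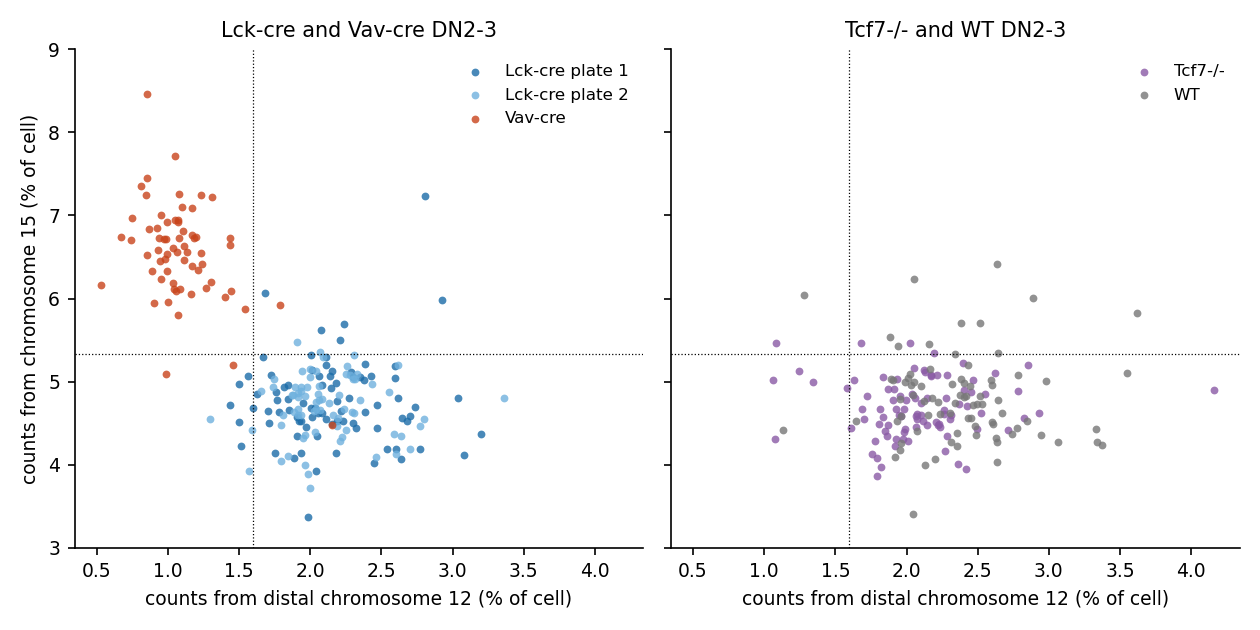
Share of each cell's counts from distal chromosome 12 (x axis) and from chromosome 15 (y axis), 1 point per cell with at least 10000 counts, for Lck-cre and Vav-cre on the left and Tcf7-/- and WT on the right; dotted lines are the 5th and 95th percentiles of Lck-cre cells. Vav-cre has 61 of 65 cells in the upper left field, and Lck-cre has 0 of 159.

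Marker genes and this shift were then counted in the same cells. Of the 61 Vav-cre cells past both marks, 58 had counts of at least 2 of Pdlim4, Gpr83, Izumo1r and Id2, and so did 3 of the 4 Vav-cre cells that were not. In Tcf7-/-, 74 of 88 cells not past both marks had at least 2 of them. None of the 4 genes lies on distal chromosome 12 or chromosome 15, since Id2 starts at 25.1 Mb of chromosome 12.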

How the data were processed

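Cells were sorted into plates of 96 and their RNA was counted per gene. The deposited files hold unnormalized read counts for each gene in each cell, and a log2 table by the authors that is proportional to the counts within 0.0332% in each cell and was used in 1 alternative only. Alignment with TopHat2 2.1.1 to mm10 and counting with HTSeq are named in the submitters' processing notes. Whether molecular identifiers were collapsed is not given in the sources used here. A set of 27 entries turned into dates, 0.141% of counts, was dropped, which left 23127 genes.

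Cells with at least 1000 genes were kept, counts were summed per library over cells of 2298 to 412152 counts, and log2(CPM + 10) was compared. Genes at 50 CPM or more were counted for calls, and at 10 CPM or more for lists. No test was planned or run, because no separate animals are named and a genotype is 1 sample. Genes named beside list members and markers were the 12 highest and 12 lowest by the nearer plate, among called genes seen in at least 20% of the cells of the higher group with under 50% of its counts in 1 cell, leaving out unnamed gene models, Xist and Y-linked genes, and further the 4 list members farthest from 0; other list members were named after their values were seen. Of these, 1 gene is not reported here. The members and lists were chosen with earlier results of these data known, and the chromosome grouping after its values were seen. Doublets were not called. Intervals are exact Poisson, conditional binomial or Clopper-Pearson at 95%. Positions are from GENCODE M21 (mm10) and promoters from RefSeq (GRCm38.p6). Python 3.11.15, numpy 2.4.6, pandas 2.3.3, scipy 1.17.1 and matplotlib 3.10.9 were used, and edgeR 4.0.16 for TMM factors in an alternative. The calling step was tested on simulated data.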

Additional observations from a re-analysis of the deposited data

How the results depend on the processing

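No paired analysis was possible because Vav-cre has 1 plate. With every gene at 10 CPM or more counted, and likewise with no filter, 291 genes were higher and 406 lower. Leaving out cells with markers of other blood cells left 46, 45 and 41 cells and gave 340 higher and 365 lower. Of these, 86 and 142 were among the reported 135 and 189. This filter used raw counts, so it more readily left out deeper cells, and its markers include Bst2 and Cd79b, present in each library. Leaving out 1 Lck-cre plate gave 221 to 243 higher and 269 to 274 lower. The other alternatives gave 111 to 197 higher and 156 to 264 lower. Among the called genes followed over the alternatives, the log2 ratio changed sign for Cpa3 (-0.10), Nusap1 (0.38) and Ube2c (1.67) without cells bearing other blood markers. It also did so for Ube2c (0.60) in cells with fewer than 8 G2 and M genes, a set chosen by genes of the same kind. Genes that were followed but not called changed sign as well, among them Hmmr, Cd163l1, Irf8, Bcl9, Ccl25, Ctsw and Mcl1. Without the 10 most abundant genes of each stretch, 40 Vav-cre cells were past both chromosome marks, against 61; this and the cell sets were chosen after seeing the data. The cause was not tested. Vav-cre rests on 1 plate, so its own spread is unknown.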
